A study of Homo sapiens with 8 samples.

Results

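CD33 and 9 related genes, SIGLEC5, SIGLEC6, SIGLEC7, SIGLEC8, SIGLEC9, SIGLEC10, SIGLEC11, SIGLEC12 and SIGLEC14, were examined for open chromatin in U-937 cells. U-937 is an established human myeloid leukemia cell line, and ATAC-seq reads out open chromatin as the places where a transposase could insert sequencing adapters. All 4 groups were U-937 cells held for 24 h with DMSO, with 0.1 µM ATRA, with 0.1 µM Corin, or with both compounds at 0.1 µM each, and each group had 2 samples. ATRA (all-trans retinoic acid) activates the retinoic acid receptors, and Corin is a hybrid inhibitor directed at the histone demethylase and histone deacetylase of the CoREST complex. The authors' files held 1 list of peaks per group, so each value below comes from 1 list made from 2 samples, no spread between samples could be given, and no test was possible. Overlapping peaks of the 4 lists were joined into 161291 regions. Of these, 74 overlapped the body of 1 of the 10 genes or the 15 kb on either side of it, all on chromosome 19. The windows of neighbouring genes overlap, and 20 of the 74 regions lay in more than one window: 9 were shared by SIGLEC9 and SIGLEC7, 6 by SIGLEC12 and SIGLEC6, and 5 by SIGLEC5 and SIGLEC14.

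Siglecs are receptors of white blood cells that bind sialic acids, the sugars that cap many glycans on cell surfaces. Most of the CD33-related members carry inhibitory motifs in their cytoplasmic tail, which recruit the phosphatases SHP-1 and SHP-2 after phosphorylation, and so dampen activation of the cell. A few, such as SIGLEC14, instead have a charged residue in the membrane that pairs with the adaptor DAP12 and passes an activating signal. CD33 is a marker of the myeloid lineage and the target of antibody therapy in acute myeloid leukemia. The genes lie close together and arose by duplication, so that several pairs still share near-identical sequence.

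The sequences printed here are the stretch upstream of the CD33 start, the matching stretches of the near-identical pair SIGLEC5 and SIGLEC14, and the centres of 3 regions that differed most between the lists near CD33 and SIGLEC14. The upstream stretches come from RefSeq (GRCh38.p14), in which all 10 genes were matched, and hold the 250 bases before the RefSeq start. They run 5′ to 3′ on the strand of the gene. For CD33, chr19:51224830-51225079 on the plus strand, capitals mark GAGGAA, a core bound by PU.1-type ETS factors, or its reverse complement, and GGGCGG, bound by SP and KLF factors. The last 16 of these bases lie in the GENCODE 5′ UTR, since GENCODE places the start earlier.
CD33: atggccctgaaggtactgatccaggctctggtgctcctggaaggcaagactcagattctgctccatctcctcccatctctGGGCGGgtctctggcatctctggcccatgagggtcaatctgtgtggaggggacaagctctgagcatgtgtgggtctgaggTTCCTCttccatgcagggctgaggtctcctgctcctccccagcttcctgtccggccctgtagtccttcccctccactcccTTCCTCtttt
The stretches of SIGLEC5, chr19:51630402-51630651, and SIGLEC14, chr19:51646826-51647075, are on the minus strand, and capitals mark the longest run that both share without a difference.
SIGLEC5: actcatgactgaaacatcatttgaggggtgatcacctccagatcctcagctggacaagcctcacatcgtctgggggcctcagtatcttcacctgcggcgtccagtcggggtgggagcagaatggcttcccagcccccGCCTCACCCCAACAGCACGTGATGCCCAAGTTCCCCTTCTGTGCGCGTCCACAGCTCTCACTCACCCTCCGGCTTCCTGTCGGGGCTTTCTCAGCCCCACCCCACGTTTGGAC
SIGLEC14: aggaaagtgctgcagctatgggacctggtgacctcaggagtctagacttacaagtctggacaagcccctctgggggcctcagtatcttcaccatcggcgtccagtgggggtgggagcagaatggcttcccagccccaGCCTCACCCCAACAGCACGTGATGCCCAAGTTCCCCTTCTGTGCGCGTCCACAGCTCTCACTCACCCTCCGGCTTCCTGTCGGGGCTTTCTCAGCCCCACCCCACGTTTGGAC
The shared run was 113 bases long and ended at the start of both genes, and 195 of the 250 aligned positions (78%) were identical. The next sequences are 200 bases (hg38, plus strand) centred on the summit in the ATRA list. Capitals mark GAGGAA or TTGCNNAA, a C/EBP-type core, on either strand; the SIGLEC14 upstream centre holds neither. They stand for a region in an intron of CD33 (chr19:51243005-51243204), a region 11.9 kb upstream of SIGLEC14 (chr19:51658636-51658835) and a region in an intron of SIGLEC14 (chr19:51644980-51645179).
CD33 intron: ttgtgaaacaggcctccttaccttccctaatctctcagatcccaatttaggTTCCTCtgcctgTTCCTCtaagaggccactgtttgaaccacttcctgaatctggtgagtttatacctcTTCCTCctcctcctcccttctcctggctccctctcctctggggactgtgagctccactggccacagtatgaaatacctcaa
SIGLEC14 upstream: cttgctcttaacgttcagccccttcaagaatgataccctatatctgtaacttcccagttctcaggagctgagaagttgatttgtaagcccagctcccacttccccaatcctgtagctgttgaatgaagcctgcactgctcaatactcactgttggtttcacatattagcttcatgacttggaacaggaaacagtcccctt
SIGLEC14 intron: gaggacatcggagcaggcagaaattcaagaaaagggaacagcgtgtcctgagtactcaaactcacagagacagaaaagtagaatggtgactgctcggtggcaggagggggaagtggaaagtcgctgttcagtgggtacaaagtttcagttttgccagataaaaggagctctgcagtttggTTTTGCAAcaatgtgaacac

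The DMSO, ATRA, Corin and combination lists held 222491, 222110, 189896 and 197548 peaks. Each peak has a fold over its local background, a −log10 p and a −log10 q, all of them the authors' own values and not scaled between lists. A region took the fold of its peak with the highest −log10 p in that list. The median fold over all regions was 5.15, 7.81, 5.16 and 6.16 in that order, and 6.14, 9.64, 6.06 and 7.39 over the Siglec regions. The read depth was unknown, but the number of reads piled up at a summit, as the peak caller counted them, and its local background could be solved from p and fold, and the solved pileup was within 0.05 of a whole number for 99.97% to 99.98% of the peaks of a list. As a check of the cell type, 6 of 8 myeloid marker genes had a region within 1 kb of a start in every list, and CD14 and MPO had none. The T cell markers CD3E and CD3D, the erythroid markers HBB and KLF1 and the B cell marker MS4A1 had none in any list, while the B cell marker PAX5 had one in all 4. A region near a start can belong to a neighbouring gene.

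Most Siglec regions were open in every condition. Of the 74 regions, 51 (68.9%) were called in all 4 lists, against 66303 (41.1%) of all regions. DMSO held 63 of the 74, ATRA 65, Corin 57 and the combination 60. Their summits lay close together. In the 51 regions called in all lists the summits of the 4 lists lay a median of 18 bp apart, and 41 had all summits within 50 bp. The widest spread, 1060 bp, was in a broad region at the start of SIGLEC16, where different lists had their strongest peak at different places. With ATRA, 8 of its 65 Siglec regions were not called in DMSO (12.3%, against 23.3% of all regions in the ATRA list), and 6 of the 63 DMSO regions were not called with ATRA (9.52%, against 25.4%). Corin had 2 of 57 that DMSO lacked (3.51%, against 17.8%) and lacked 8 of 63 (12.7%, against 28.4%). The combination had 4 of 60 that DMSO lacked (6.67%, against 16.6%) and lacked 7 of 63 (11.1%, against 31.6%). All 6 shares were under those of all regions, which goes with the larger share called in all 4 lists. The Siglec regions were also stronger than regions in general. Their median pileup was 181, 297, 178 and 261 reads in DMSO, ATRA, Corin and the combination, against 110, 138, 115 and 153 over all regions. Whether the shares differ from those of regions of like strength was not tested.

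**Figure D1:**
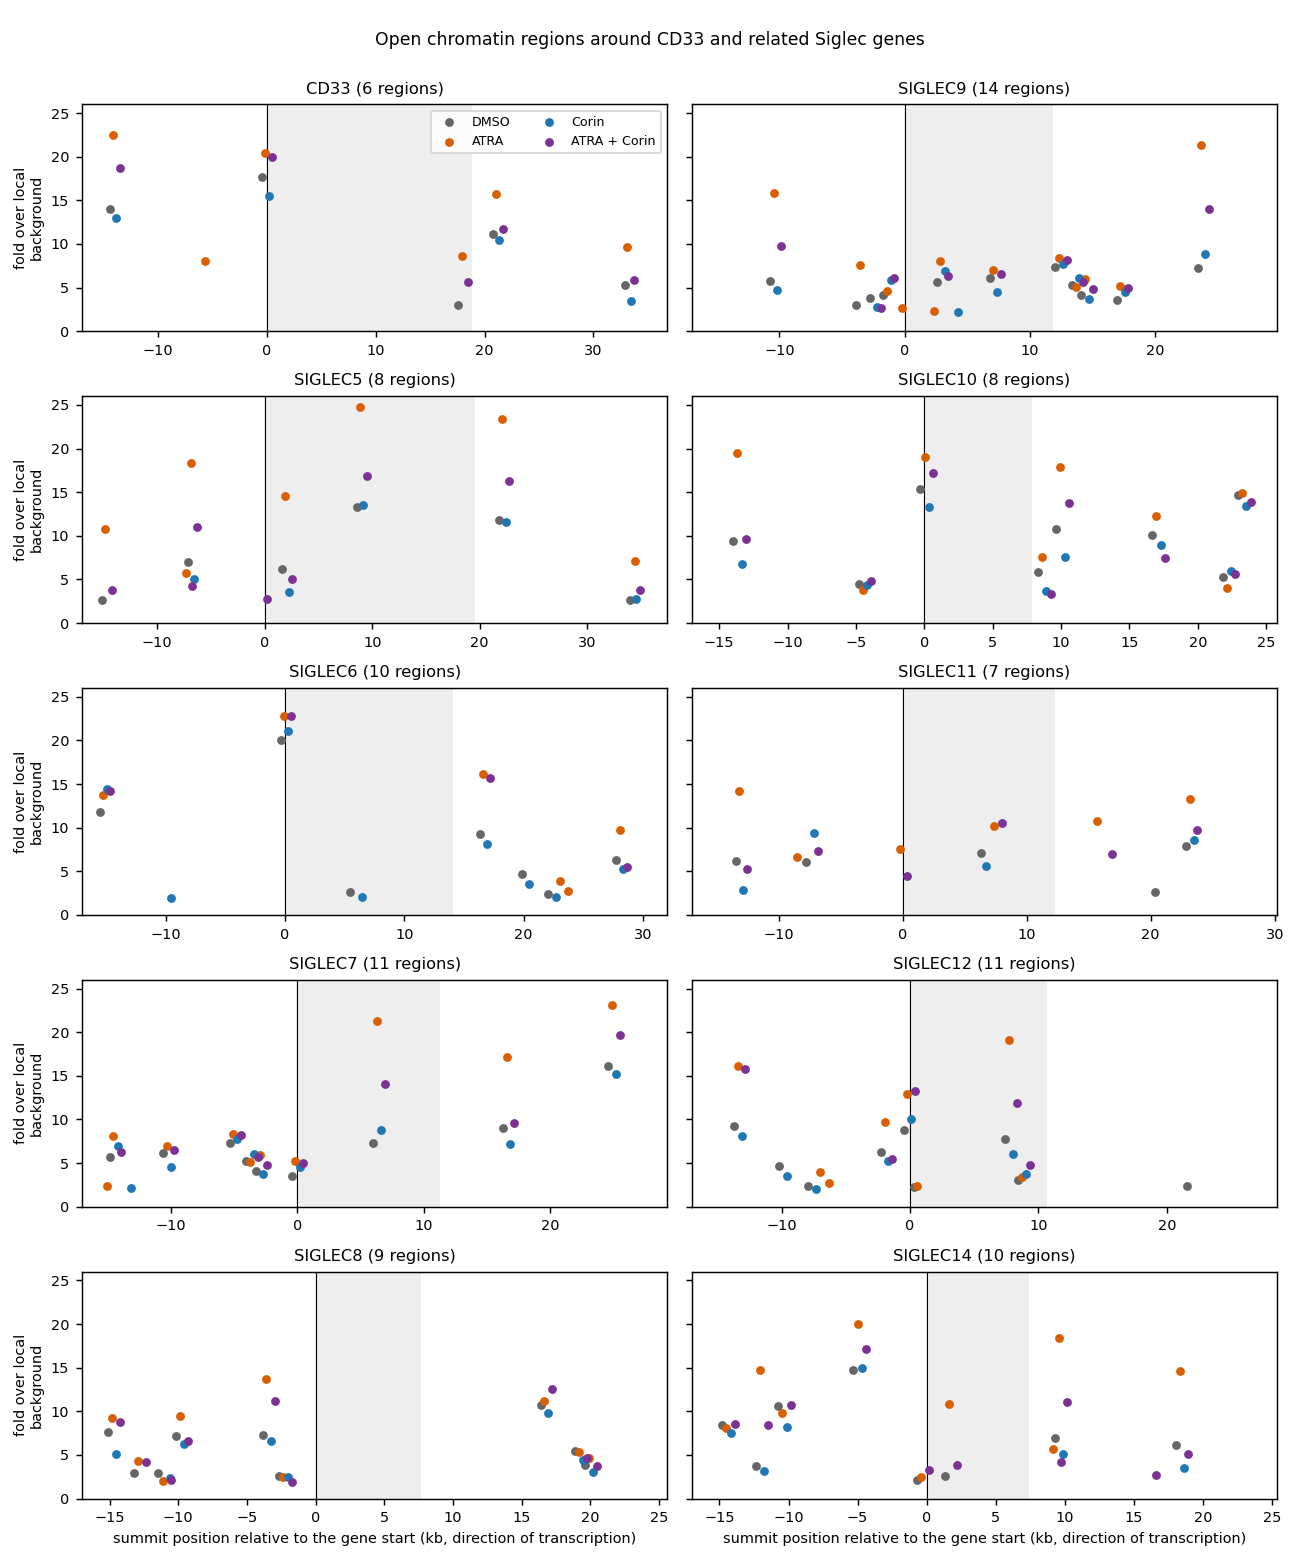
Fold over local background (y axis) of every Siglec region against its summit position relative to the gene start in kb (x axis), 1 panel per gene, with the gene body in grey, the start as a line and the 4 lists in colour, shifted sideways by under 0.5 kb so that they can be told apart. The ATRA points (orange) are the highest of most regions, and points without companions in the other colours are regions called in some lists only.

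CD33, the myeloid marker, had an open start in every list and a region in an intron that differed between lists. The gene lies on the plus strand at chr19:51225064-51243860, and 6 regions were found in its window, 5 of which are described. The region over its start (chr19:51224736-51226548) had a fold of 17.6 in DMSO, 20.4 with ATRA, 15.5 with Corin and 19.96 with the combination, from pileups of 428, 795, 321 and 671 reads. ATRA and the combination were thus the high lists and Corin the low one. Relative to the median ratio of all shared regions, which was 1.261 with ATRA, 0.943 with Corin and 1.019 with both, the fold at the CD33 start was 0.918, 0.931 and 1.11 times that of DMSO, and the pileup, scaled by its own medians, 1.731, 0.821 and 1.404 times. The local background at that summit was 23.3, 38.0, 19.8 and 32.7 reads.

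The region in an intron of CD33, 18 kb downstream of the start (chr19:51242865-51243278), had a fold of 2.96 in DMSO, 8.58 with ATRA and 5.61 with the combination, and was not called with Corin. Its pileup was 87, 353 and 207 reads. The ATRA list was the highest and the combination lay between ATRA and DMSO, with scaled fold ratios to DMSO of 2.301 and 1.862 and scaled pileup ratios of 3.781 and 2.131. Its printed centre holds GAGGAA 3 times, at bases 52, 64 and 120 counted from its 5′ end. The strong region 14 kb upstream of CD33 (fold 14.1, 22.5, 12.9 and 18.7 in the order DMSO, ATRA, Corin, combination) had the same order of lists as the start. Its sequence around the summit closely resembles that of the start region. Of the 50-base windows in the upstream region 11.2% occur more than once on chromosome 19, and 8.6% of those in the start region. Reads from one region could be placed on the other or left out, so the shared order is not a separate observation. The regions 21.2 and 33.3 kb downstream of the start, were called in all lists.

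SIGLEC9 (chr19:51124906-51136651) and SIGLEC7 (chr19:51142299-51153526), both on the plus strand, are inhibitory receptors, of neutrophils and monocytes and of natural killer cells respectively. SIGLEC9 had 14 regions and SIGLEC7 had 11. Between the 2 genes, the region with the highest −log10 p of the SIGLEC9 window lay 4.9 kb upstream of SIGLEC7 and had a fold of 7.36, 8.38, 7.75 and 8.19. These folds lie close together, while the pileups were 589, 1071, 621 and 1021 reads, with scaled pileup ratios of 1.694 with ATRA and 1.552 with the combination. At the SIGLEC7 start the fold was 3.54 in DMSO, 5.21 with ATRA, 4.50 with Corin and 4.98 with the combination, with pileups of 261, 647, 342 and 603 reads. All 3 treatments were above DMSO there, with scaled fold ratios of 1.168, 1.349 and 1.38. SIGLEC9 had no region at its own start except in the ATRA list, where the fold was 2.71. A second start region, 1.3 kb upstream, had a fold of 4.20, 4.66, 5.91 and 6.06 and was highest in the 2 lists with Corin, with pileups of 223, 236, 444 and 462 reads. Another, over a coding exon 3.1 kb downstream of the gene start and within 1 kb of another annotated transcript's start, had 5.66, 8.07, 6.94 and 6.29. A weak region 2.5 kb downstream was called with ATRA only (fold 2.32), and 1 in the next intron, 4.1 kb downstream, with Corin only (fold 2.17).

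Away from the starts, the intron of SIGLEC7 held a region (chr19:51148271-51149103) with a fold of 7.27 in DMSO, 21.3 with ATRA, 8.83 with Corin and 14.05 with the combination. Its pileups were 126, 348, 185 and 311 reads, and the scaled fold ratios to DMSO were 2.327, 1.288 and 1.896. The order ATRA, combination, Corin, DMSO held for both fold and pileup. The region 10.3 kb upstream of SIGLEC9 (chr19:51114161-51115026) had a fold of 5.71, 15.8, 4.68 and 9.71, with scaled ratios of 2.197, 0.87 and 1.67. Here Corin was the lowest list. In the pseudogene SIGLEC18P, just upstream of SIGLEC9, 2 neighbouring regions had opposite calls: the one at 3.4 kb had a fold of 3.01 in DMSO and 7.59 with ATRA and was missing in the other two lists, and the one at 2.3 kb had 3.84, 2.77 and 2.65 in DMSO, Corin and the combination and was missing with ATRA. Downstream of SIGLEC7, in a non-coding gene, the region 16.7 kb from the start had a fold of 9.0, 17.1, 7.21 and 9.61 (scaled ratio 1.51 with ATRA), and the one 25 kb away 16.1, 23.2, 15.2 and 19.7.

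SIGLEC10 (chr19:51410020-51417803, minus strand), an inhibitory receptor of B cells and macrophages that binds CD24, had 8 regions, and all 8 were called in every list. The region over its start had a fold of 15.4 in DMSO, 19.1 with ATRA, 13.3 with Corin and 17.2 with the combination, from pileups of 995, 1743, 792 and 1755 reads. ATRA and the combination had nearly the same pileup, above DMSO, and Corin the lowest. At 13.5 kb upstream of the start a region had 9.40, 19.5, 6.76 and 9.69, and ATRA stood apart with a scaled ratio of 1.646. In the opposite direction, the region 22.3 kb downstream of the start had 5.30, 4.01, 6.01 and 5.66, and ATRA was the lowest list with a scaled ratio of 0.599. The region 8.8 kb downstream had 5.85, 7.59, 3.70 and 3.32, and its scaled ratio with the combination was 0.557.

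SIGLEC8 (chr19:51450847-51458456, minus strand), an inhibitory receptor of eosinophils and mast cells, had no region within 1 kb of a start in any list. Its window held 9 regions, 8 of them in every list. The strongest, 3.4 kb upstream (chr19:51461185-51463700), had a fold of 7.25 in DMSO, 13.7 with ATRA, 6.65 with Corin and 11.2 with the combination. Its pileup was 428, 1471, 314 and 1155 reads while the local background was 58.2, 106.5, 46.4 and 102.6 reads, so the scaled pileup ratios of 3.203 with ATRA and 2.416 with the combination were larger than the scaled fold ratios of 1.498 and 1.511. A region 12.8 kb upstream was missing with Corin only (fold 2.96, 4.30 and 4.23 in the other lists). The region 11 kb upstream was the weakest of the ATRA list's calls near SIGLEC8, with 2.95, 1.98, 2.33 and 2.08 and a scaled ratio of 0.533, and its summits were 303 bp apart.

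SIGLEC12 (chr19:51491227-51501800, minus strand), whose human protein has lost the residue that binds sialic acid, and SIGLEC6 (chr19:51517819-51531856, minus strand), known from placenta and mast cells, had 11 and 10 regions. The SIGLEC6 start had among the highest folds of the set, 20.01 in DMSO, 22.8 with ATRA, 21.1 with Corin and 22.8 with the combination. Its lists differed little, with scaled fold ratios of 0.903, 1.117 and 1.116. At the SIGLEC12 start the fold was 8.82, 13.0, 10.0 and 13.2, from 384, 715, 440 and 687 reads, so both lists with ATRA were higher. A weak second start region 0.7 kb downstream was called in DMSO (2.26) and ATRA (2.33) only.

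In an intron of SIGLEC12 a region 7.9 kb downstream of the start (chr19:51493605-51494201) had a fold of 7.76, 19.1, 6.06 and 11.9, with scaled ratios of 1.956, 0.828 and 1.504. Next to it, 8.9 kb downstream, a weaker one had 3.04, 3.36, 3.73 and 4.76 and was highest with the combination (scaled ratio 1.535). The region 13.3 kb upstream of SIGLEC12 had 9.31, 16.1, 8.07 and 15.7, and its scaled ratio with the combination was 1.658. These 2 windows held 8 of the 23 regions that were not called in all lists. Upstream of SIGLEC12, regions at 6.1 kb (fold 2.76) and at 6.8 kb in the pseudogene SIGLEC27P (fold 3.93) were called with ATRA only. The region at 9.8 kb upstream of SIGLEC12 (4.68 and 3.51) and one in an intron of SIGLEC6 (2.61 and 2.01) were called in DMSO and Corin and in neither list with ATRA. A region 22.0 kb downstream of the SIGLEC12 start was called in DMSO only (2.43).

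SIGLEC5 (chr19:51610960-51630401) and SIGLEC14 (chr19:51639478-51646825), on the minus strand, are a pair of receptors with nearly the same ligand-binding end, SIGLEC5 inhibitory and SIGLEC14 activating through DAP12. Together they held the largest differences between the lists. The region 11.9 kb upstream of SIGLEC14 (chr19:51658444-51658989) had a fold of 3.68 in DMSO, 14.7 with ATRA, 3.21 with Corin and 8.44 with the combination, from pileups of 54, 297, 54 and 197 reads. DMSO and Corin had the same pileup and both lists with ATRA were far above it. The scaled fold ratios were 3.169, 0.924 and 2.248, and the scaled pileup ratios 5.125, 1.095 and 3.267. The region in an intron of SIGLEC14, 1.7 kb downstream of the start (chr19:51644754-51645273), had a fold of 2.61 in DMSO, 10.8 with ATRA and 3.82 with the combination, and was not called with Corin. Its scaled fold ratio with ATRA, 3.289, was the highest of the set. The strongest region of the SIGLEC14 window, 4.9 kb upstream, was open in all lists at 14.7, 20.04, 14.99 and 17.2.

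Around SIGLEC5 the region with the highest −log10 p, in an intron 9.0 kb downstream of the start (chr19:51620842-51621685), had a fold of 13.3 in DMSO, 24.8 with ATRA, 13.5 with Corin and 16.9 with the combination, and its scaled ratio with ATRA was 1.474. Besides the SIGLEC14 intron region, 4 regions of the SIGLEC5 window had a ratio above 1.5. They lay 6.7 kb upstream of the SIGLEC5 start (6.96, 18.4, 5.09 and 11.05, scaled ratio 2.095), 34.6 kb downstream (2.65, 7.12, 2.75 and 3.84, scaled ratio 2.126), 22.3 kb downstream (11.9, 23.4, 11.5 and 16.3, scaled ratio 1.568), and 2.0 kb downstream in an intron (6.16, 14.6, 3.54 and 5.09, scaled ratio 1.877). ATRA was the high list in each, and in the last the Corin list was low, at a scaled ratio of 0.609. A small region 7.2 kb upstream was called with ATRA (5.73) and the combination (4.22) only. At the starts themselves signals were weak. SIGLEC5 had a start region in the combination list only, with a fold of 2.75 and a −log10 p of 8.49, and SIGLEC14 had 2.18 in DMSO, 2.44 with ATRA and 3.24 with the combination and none with Corin. Of the 50-base windows in the 1000 bases around each of these starts, 59.4% occur more than once on chromosome 19, so reads from one gene could be placed on the other or left out, and the calls at both starts are uncertain.

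SIGLEC11 (chr19:49948985-49961172, minus strand), an inhibitory receptor of macrophages and microglia, lies apart from the rest and next to SIGLEC16, its activating partner. Its start had a region with ATRA (fold 7.51, 75 reads) and with the combination (4.42, 65 reads) and none in DMSO or Corin. A region 15.8 kb downstream (chr19:49944581-49945531) showed the same calls, with 10.8 and 7.01. Repeated sequence also touches these calls: 52.5% of the 50-base windows around the SIGLEC11 start occur more than once on chromosome 19, and the upstream stretches of SIGLEC11 and SIGLEC16 share a run of 134 bases. In an intron of SIGLEC16, 13.0 kb upstream of SIGLEC11 (chr19:49973782-49974551), a region with 0.6% of such windows had a fold of 6.12 in DMSO, 14.2 with ATRA, 2.82 with Corin and 5.32 with the combination. ATRA was high and Corin low there, with scaled ratios of 1.838 and 0.489. The broad region at the SIGLEC16 start had 6.03, 6.64, 9.35 and 7.28, and its scaled ratio with Corin, 1.645, was the only one above 1.5 for that compound; the lists' summits there differed by up to 1060 bp. The region with the highest −log10 p, 7.5 kb downstream of the SIGLEC11 start, had 7.08, 10.2, 5.61 and 10.6, with summits 1008 bp apart. A weak region 20.8 kb downstream was called in DMSO only (2.66).

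**Figure D2:**
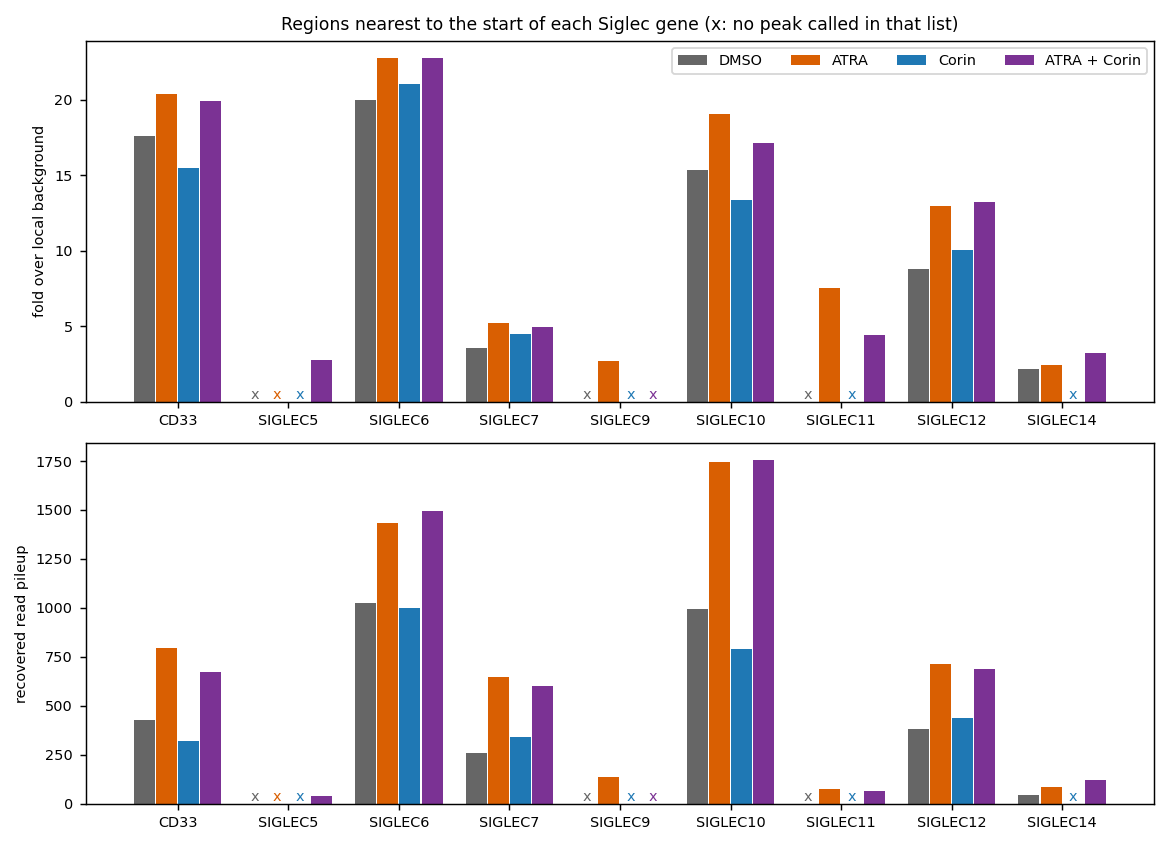
Fold over local background (top) and recovered read pileup (bottom) at the region nearest to the start of each gene in the 4 lists, with an x where no peak was called. SIGLEC6, CD33 and SIGLEC10 have the highest bars in fold, while in pileup CD33 is below SIGLEC12 with Corin and with the combination. SIGLEC8 has no region and is not drawn, and SIGLEC5, SIGLEC9, SIGLEC11 and SIGLEC14 have bars in some lists only.

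A region within 1 kb of a start was found for 7 of the 10 genes in DMSO, 8 with ATRA, 6 with Corin and 9 with the combination. Over all 20033 protein-coding genes the share was 71.5%, 69.2%, 69.9% and 69.4%, so the genes with a start region were about as many as for genes in general. The genes that moved the count were SIGLEC5, SIGLEC11 and SIGLEC14, whose starts held the most repeated 50-base windows (59.4%, 52.5% and 59.4%). SIGLEC14 had 2 start regions in DMSO, ATRA and the combination and 0 with Corin. The second is its intron region, near another annotated transcript's start, and 0.0% of its 50-base windows were repeated.

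**Figure D3:**
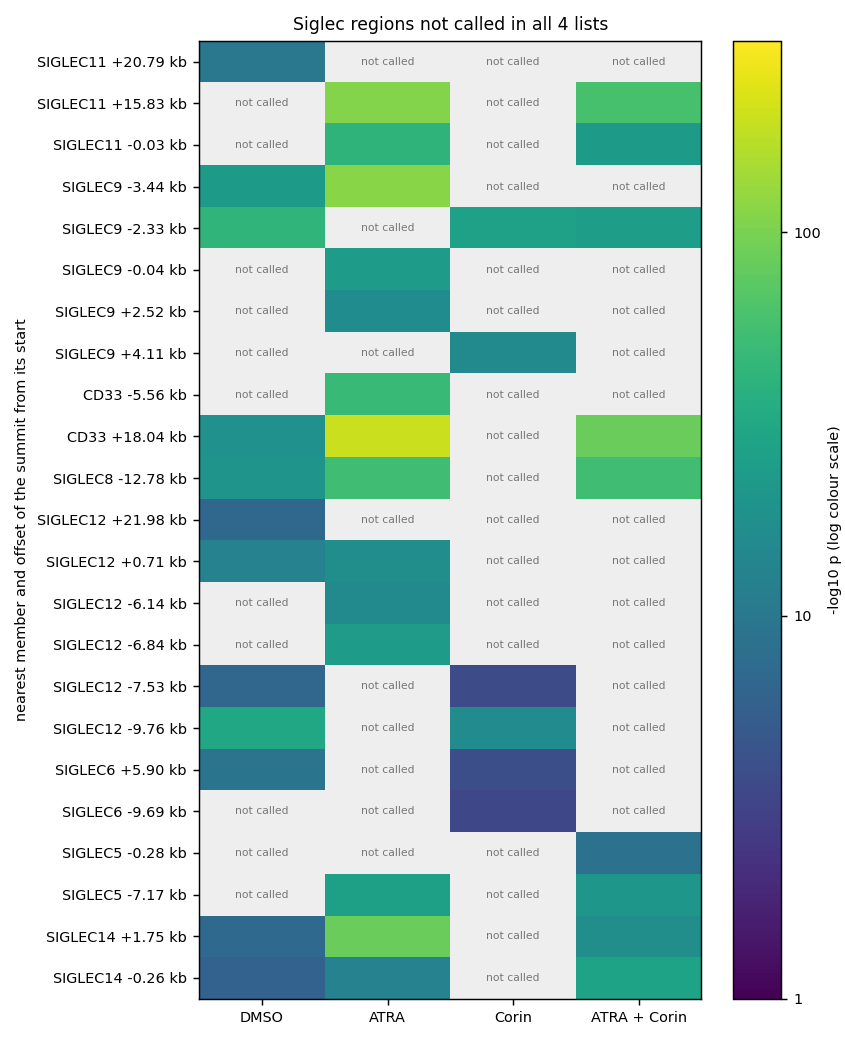
The 23 Siglec regions not called in all 4 lists, 1 line per region in order along the chromosome, labelled by the nearest gene and the distance of the summit from its start in kb, with −log10 p in colour on a log scale. The calls with ATRA and the combination near SIGLEC11 have a −log10 p of 42.2 and 23.2 at its start and 108.2 and 59.0 downstream. Of the 50-base windows in these regions, 19.9% and 22.5% were repeated. The CD33 intron region is stronger, at 199.5 with ATRA, and most regions missing in both lists with ATRA are weak.

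Compared region by region with DMSO, higher scaled folds in the ATRA list were more frequent in the set than over all regions. This excess lay mainly at SIGLEC5 and SIGLEC14. Among the 57 regions called in both, 14 had a scaled fold at least 1.5 times that of DMSO (24.6%, against 16.6% of all shared regions) and 2 were lower by as much (3.51%, against 8.81%), and the median scaled ratio was 1.129. By gene, 5 of 6 shared regions were higher in scaled fold at SIGLEC5 and 4 of 8 at SIGLEC14, whose windows overlap. SIGLEC8 had 0 of 9 and SIGLEC10 had 1 of 8. The median scaled ratio by gene ran from 0.957 at SIGLEC8 to 1.986 at SIGLEC5. Without scaling the split over the set was 22 higher and 0 lower. With Corin, 1 of 55 was higher (1.82%, against 6.35%) and 2 were lower (3.64%, against 10.8%), with a median of 0.946. For Corin the split was 1 higher and 4 lower both without scaling and with scaling by the strongest 20% of regions, so no direction is given. With the combination, 9 of 56 were higher (16.1%, against 8.27%) and 1 was lower (1.79%, against 12.1%), with a median of 1.129, and scaling by the strongest 20% gave 6 higher and 2 lower.

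The difference from other regions was larger in the pileup than in the fold. With ATRA, 33 of 57 Siglec regions had a scaled pileup at least 1.5 times that of DMSO (57.9%, against 18.3% of all shared regions) and 0 were lower (against 16.4%), and the median was 1.658. With the combination 25 of 56 were higher (44.6%, against 12.5%) and 2 lower (3.57%, against 19.4%), with a median of 1.467. With Corin 4 of 55 were higher (7.27%, against 10.2%) and 4 lower (7.27%, against 13.9%), with a median of 0.929. The fold is a pileup divided by its local background, and around the Siglec genes that background was itself higher. Unscaled, the median ratio of ATRA to DMSO over the Siglec regions was 1.424 for the fold, 1.779 for the pileup and 1.227 for the local background, while over all shared regions these were 1.261, 1.073 and 0.76. For the combination they were 1.151, 1.638 and 1.287 over the Siglec regions and 1.019, 1.117 and 1.089 over all. For Corin they were 0.891, 0.849 and 0.969, against 0.943, 0.913 and 1.007. Neighbouring regions share their local background and often a gene cluster, so they are not independent of each other.

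**Figure D4:**
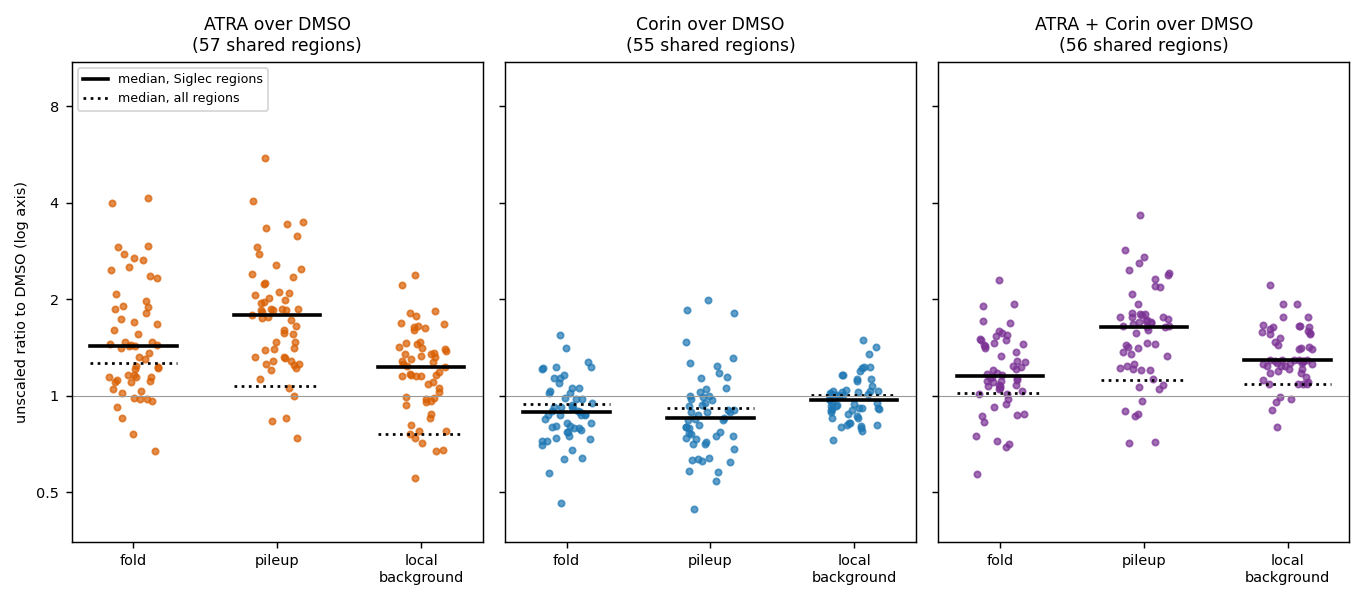
Unscaled ratio to DMSO (log axis) of the fold, the pileup and the local background of each Siglec region called in both lists, 1 panel per treatment, with solid lines at the Siglec medians and dotted lines at the medians of all shared regions. For ATRA and the combination the solid lines lie above the dotted ones in all 3 measures, most for the pileup, and for Corin they lie slightly below.

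In the 51 regions called in all lists, ATRA had the highest unscaled fold in 36, the combination in 8, Corin in 4 and DMSO in 3. Over all 66303 such regions ATRA was highest in 65.7%, so for the fold this order is close to that of the genome. By pileup ATRA was highest in 32 of the 51 and the combination in 16, against 33.1% and 36.9% of all. Corin had the lowest pileup in 37 of the 51, against 44.9% of all. The regions were split by place after the values were seen, counting as starts only those of the 10 genes. Inside genes, away from these starts, 9 of the 18 shared regions were higher with ATRA in scaled fold (median 1.492). Between genes these were 4 of 29 (median 1.029), and within 1 kb of such a start 1 of 10 (median 0.95). The medians of the scaled pileup in these places were closer, at 1.773, 1.637 and 1.682. Regions near starts of other genes, such as 1 with its summit 10 bp from a SIGLEC17P start, were not set apart. The regions of the whole genome were not split by place, so whether this split is particular to the Siglec genes was not tested.

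The combination was next set against each compound alone, with which it shares 1 treatment. Against ATRA, 2 of its 60 Siglec regions were not called with ATRA (3.33%, against 15.4% of all) and 7 of 65 ATRA regions were missing (10.8%, against 28.7%). Among 58 shared regions 5 were higher in scaled fold (8.62%, against 7.21%) and 5 lower (8.62%, against 18.1%), with a median of 1.026. By pileup 2 were higher (3.45%, against 12.9%) and 9 lower (15.5%, against 19.8%), with a median of 0.923. Of the 14 regions higher with ATRA than in DMSO, 13 were called with the combination, and its fold lay between those of DMSO and ATRA in 11 of them. The 14 were chosen by their ATRA values, so a lower value in another list carries no weight by itself. Of the 14, 6 were also above 1.5 with the combination and 0 with Corin, which called 11 of them.

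Against Corin the combination was the higher list. It held 8 of 60 regions that Corin lacked (13.3%, against 20.4%) and lacked 5 of 57 (8.77%, against 25.1%). Among 52 shared regions 11 were higher in scaled fold (21.2%, against 9.72%) and 0 lower (against 8.98%), with a median of 1.188, and by pileup 20 were higher (38.5%, against 12.4%) and 0 lower (against 15.8%), with a median of 1.396. The largest scaled fold ratios were 2.451 at the region 11.9 kb upstream of SIGLEC14, 2.022 at the one 6.7 kb upstream of SIGLEC5 and 1.934 at the one 10.3 kb upstream of SIGLEC9. Among the 8 regions that Corin lacked were the CD33 intron region and both start regions of SIGLEC14.

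Short sequence motifs, chosen after the sequences were seen, were counted in the promoters and region centres. GAGGAA, on either strand, was in the 250 bases before the RefSeq start of 6 of the 10 genes, against 23.6% of 34943 RefSeq promoters. At CD33 it began 90 and 10 bases before that start. AGGTCA, the half-site of nuclear receptors such as the retinoic acid receptors, was in 5 of 10, against 12.1%. GGGCGG was in 2 (against 42.5%), TGANTCA, the AP-1 site, in 1 (against 6.6%), and TGTGGT, the RUNX core, and TTGCNNAA in 0 (against 11% and 9.1%). Some of these stretches run past the GENCODE start, with 71 UTR bases at SIGLEC7 and 186 at SIGLEC6. The GAGGAA matches of SIGLEC7 and SIGLEC6, and the CD33 match at 10 bases, thus lie inside the GENCODE gene. Since the promoters of these genes share stretches by descent, such as 40 bases between SIGLEC8 and SIGLEC12, the members are not independent. In the 200 bases around the strongest summit, GAGGAA was in 33 of 74 Siglec regions (44.6%), against 29.5% of the 3952 regions of chromosome 19 in the ATRA list. AGGTCA was in 14 (18.9%, against 11.7%), TGANTCA in 12 (16.2%, against 8.5%), TTGCNNAA in 11 (14.9%, against 10.6%), TGTGGT in 13 (17.6%, against 16.9%) and GGGCGG in 4 (5.4%, against 28.6%). A match describes the letters and says nothing of a bound factor.

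All 12 genes of the signalling list, which holds the phosphatases, adaptors and kinases around the receptors, had a start region in every list. Over all shared regions, 16.6% were higher and 8.81% lower in scaled fold with ATRA, 6.35% and 10.8% with Corin, and 8.27% and 12.1% with the combination. By scaled pileup these shares were 18.3% and 16.4%, 10.2% and 13.9%, and 12.5% and 19.4%. The lists are short beside these shares, so the genes are named as description only. For ATRA 0 of 12 were higher and 1 was lower in scaled fold (CBL, a ubiquitin ligase, 0.636), for Corin 0 were higher and 1 lower (FCER1G, an adaptor, 0.652), and for the combination 1 was higher (INPP5D, the phosphatase SHIP1, 1.701) and 0 lower. By scaled pileup 2 of the 12 were higher with ATRA (INPP5D 1.796 and FCER1G 1.669) and 0 lower. With Corin 1 was higher (INPP5D 1.508) and 1 lower (FCER1G 0.662), and with the combination 2 were higher (INPP5D 2.539 and SOCS3, a signalling inhibitor, 1.811) and 0 lower. All 15 genes of sialic acid synthesis, transfer and removal also had a start region in every list, and 0 passed 1.5 in scaled fold in either direction with any treatment. By scaled pileup 1 did, NANP, a phosphatase of sialic acid synthesis, at 1.552 with ATRA. Of 5 other Siglec genes, all had a start region in DMSO and ATRA and 4 in Corin and the combination, the exception being MAG, a Siglec of myelin. SIGLEC1, the adhesion receptor of macrophages, had 9.34 in DMSO, 13.8 with ATRA, 5.90 with Corin and 10.4 with the combination, and SIGLEC15 had 9.01, 16.2, 9.63 and 12.4. Their scaled fold ratios with ATRA were 1.169 and 1.426, and their scaled pileup ratios 1.947 and 1.831. With Corin the scaled fold ratio of SIGLEC1 was 0.67 and its scaled pileup ratio 0.38, from 256 reads against 737 in DMSO.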

How the data were processed

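Open chromatin of U-937 cells was taken from 1 deposited peak list per group, each made by the authors from 2 samples; no per-sample values were used. Per the submitters' processing notes, cutadapt, Bowtie2, SAMtools, Picard and MACS2 were used on build hg38, without versions or settings, and per the file names the lists come from a naive overlap and were filtered. Of the deposited columns, the peak score was not used, the fold is a ratio of the peak over its local background, p and q are given as −log10 by the authors, and the last is the distance of the summit from the peak start in bp.

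Peaks of chromosomes 1 to 22, X and Y sharing at least 1 bp were joined across the 4 lists. Genes and starts came from GENCODE release 44, using the protein-coding entry of SIGLEC5 and not the non-coding one of the same name. A scaled ratio is the ratio of a value to DMSO divided by its median over all regions called in both lists, and 1.5 was the limit. Pileup and local background were solved taking the fold as (pileup plus 1) over (background plus 1) and p as the Poisson probability of a larger pileup. This step and the scaled ratios were tested on simulated data. The simulation used the same formulas and gave all lists the same background. It therefore checks the code and cannot show that the formulas fit the authors' values. Python 3.11.15, numpy 2.4.6, pandas 2.3.3, scipy 1.17.1 and matplotlib 3.10.9 were used.

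Regions named were those at a start, the one with the highest −log10 p per gene, those not in all lists with a −log10 q of at least 5 in a list, and those past 1.5 in scaled fold; some items of these rules and of the marker lists are not reported here. The genes and lists were chosen with earlier results of these data known. With 1 list per group no p-value could be computed, the read depth is unknown, and whether the 2 samples were separate cultures is not given in the sources used here. The 16 alternatives tried changed the threshold of the calls, list length, merging, overlap, window, value, scaling, limit and start definition.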

Additional observations from a re-analysis of the deposited data

How the results depend on the processing

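Across 16 alternative settings, 29 values of single regions gave 144 alternatives, of which 140 moved by less than the limit, 4 moved and 0 reversed. The 4 were the pileup in place of the fold: with ATRA 3.101 in the SIGLEC16 intron, 3.781 in the CD33 intron and 5.125 upstream of SIGLEC14, and with the combination 2.416 upstream of SIGLEC8. Of the counts under the 16 alternatives, 114 of 175 were within 1.5 times of the reported one.

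By setting, the counts that moved were these. Using only peaks with a −log10 q of at least 5, or lists of equal length (94917 regions), gave 1 region gained with Corin, and equal length gave 2 higher with Corin. Merging peaks within 150 bp left 1 lower with ATRA. Requiring 50% coverage gave 16, 6 and 12 gained with ATRA, Corin and the combination, and 9, 0 and 4 higher. Windows of 5 kb held 43 regions, 36, 39, 32 and 37 of them called in DMSO, ATRA, Corin and the combination; with ATRA 5 were gained, 2 lost, 9 higher and 0 lower, with Corin 1 gained, 5 lost, 0 higher and 1 lower, and with the combination 3 lost. Windows of 50 kb held 121 regions, 97, 91 and 96 called in DMSO, Corin and the combination; with ATRA 13 were gained, 14 lost and 4 lower, with Corin 7 gained, 13 lost, 3 higher and 4 lower, and with the combination 13 gained, 14 lost, 16 higher and 2 lower. Without scaling 22 were higher and 0 lower with ATRA, and 4 lower with Corin. Scaling by the strongest 20% gave 1, 4 and 2 lower with ATRA, Corin and the combination. The pileup gave 33 higher and 0 lower, 4 and 4, and 25 and 2. A limit of 2 gave 7 higher and 0 lower with ATRA, 0 and 1 with Corin, and 1 and 0 with the combination. The last 2 alternatives were chosen after seeing the data. Matching summits within 150 bp gave 2 higher with Corin. Leaving out 8 regions with over 10% repeated 50-base windows gave 5 gained with ATRA, 0 higher with Corin and 1 gained with the combination. Start counts stayed within 1.5 times under every start definition tried. Windows and limits hold fewer or more regions by construction, and the cause of the other moves was not tested.

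No paired analysis was possible because each group has 1 list pooled over its samples, with no replicate columns, and for the same reason no alternative leaves out a sample. Depth is unknown.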

Other observations

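Markers of other cell types were looked at beside the Siglec genes, by the strongest region within 1 kb of a start. Of 4 eosinophil and mast cell genes, the cells in which SIGLEC8 is best known, 3 had such a region in DMSO, ATRA and the combination and 2 with Corin, and EPX had none in any list. CLC, which encodes the crystal protein of eosinophils, had a fold of 2.83 in DMSO, 14.7 with ATRA and 3.41 with the combination and was not called with Corin, and its scaled fold ratio with ATRA was 4.132. PRG2, the major basic protein of eosinophil granules, had a scaled fold ratio of 1.512 with ATRA but a scaled pileup ratio of 0.537. CPA3, the mast cell carboxypeptidase, had 4.35, 5.34, 3.33 and 4.35 in DMSO, ATRA, Corin and the combination.

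Among 6 myeloid genes with a start region, LYZ, the lysozyme gene, had 12.8 in DMSO, 22.2 with ATRA, 13.7 with Corin and 15.01 with the combination, and 0 of the 6 passed a scaled fold ratio of 1.5 in either direction with any treatment. By scaled pileup 3 of the 6 were higher with ATRA, against 18.3% of all shared regions, LYZ among them at 1.955. Of the 3 B cell genes with a start region CD79A was higher with ATRA (scaled fold ratio 1.747), against 16.6% of all shared regions. Of the 4 epithelial genes 3 had a start region in DMSO and 2 in each other list, and of the 4 T cell genes 2, 1, 2 and 2. Whether the share of any cell state in the cultures differed between groups was not tested.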
